A study of Bos taurus with 47 samples.

Results

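Bovine 2-cell embryos made by somatic cell nuclear transfer (scNT) were compared with mature oocytes, the cells from which their cytoplasm came. All genes with a normalized count of at least 10 in at least 4 of the 8 libraries were taken, which kept 12210 of the 20526 genes in the table and left 8316 untested. The 8 libraries were 4 of scNT 2-cell embryos and 4 of oocytes, out of 47 libraries in 12 groups. The study as a whole followed mRNA in fibroblasts, oocytes, embryos from in vitro fertilization (IVF) or scNT up to the blastocyst, and cells grown out of blastocysts.

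The oocytes were cattle oocytes matured in vitro to the second meiotic metaphase (MII), in medium with serum and gonadotropins. For scNT, mature oocytes were stripped of their cumulus cells with hyaluronidase, and the metaphase plate and polar body were removed. A whole serum-starved fibroblast was then fused to each by an electric pulse, followed by activation. The donor fibroblasts were a primary culture from an ear biopsy of 1 cross-bred bull, used at passages 4 to 5, so the nuclear donor was 1 animal. The scNT embryos were frozen as pools of 20 on day 2. For the oocytes no number per library is recorded here, so the groups may differ in it. The labels do not describe removal of cumulus cells from the oocytes that were sequenced, and no transgene is named. The scNT embryos differed from the oocytes in the whole procedure (demecolcine, enucleation, fusion, activation and culture to day 2), and its steps cannot be told apart. The labels' own texts differ on how many pools were made per stage (3 or 4), and the table holds 4. No label ties the replicates to separate animals or cultures, so the p-values below describe the spread between these pools only, and that spread may be technical.

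As background, a mature oocyte carries a stock of maternal mRNA made while it grew, and transcribes almost nothing itself. After fertilization or activation part of this stock is degraded, another part is recruited for translation through lengthening of the poly(A) tail, and transcription from the embryo's own genome takes over in later cleavage, in cattle mainly around the 8-cell stage. In nuclear transfer the same cytoplasm receives a somatic nucleus, and with whole-cell fusion also the donor cell's cytoplasm and its RNA. The genes are listed by Ensembl identifier only, and 0 of the 20526 identifiers could be paired with a gene name here. Genes are therefore described by their levels in the other libraries rather than by function, and the labelled cell types could not be checked against named markers.

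The 8 libraries held between 6680061 reads (scNT replicate 3) and 14281462 reads (oocyte replicate 2). The number of genes at 10 or more was 12185, 12450, 11940 and 12266 in the oocyte libraries and 12007, 11802, 12342 and 11960 in the scNT 2-cell libraries. The ranges overlapped, and the mean of 12028 ± 227 in scNT embryos against 12210 ± 212 in oocytes (SD, n = 4 each) did not pass a two-sided exact permutation test (p = 0.314). The first principal component (43.7% of the variance) placed all oocyte libraries on one side and all scNT libraries on the other. The second component (26.6%) set scNT replicate 3 apart, at -52.16 against 2.38 to 22.51 for the other scNT libraries. That library had the lowest mean correlation with its own group, 0.963 against 0.978 to 0.982, and the most genes at 1 or more, 16288. That count is not a like comparison. In scNT replicate 3 a read was worth 1.2401 normalized counts, against 0.5154 to 0.8838 in the other libraries. A single read therefore reached 1 only in that library. The numbers of called genes and the mean differences of 2 gene sets are given below with and without it. Most other results are given with it only.

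Of the 12210 genes tested, 2256 (18.5%) were called, that is, they had a Benjamini-Hochberg adjusted p under 0.05 in limma on log2(normalized count + 1). Of these, 1200 genes were higher in scNT 2-cell embryos (9.83% of those tested) and 1056 were lower (8.65%). The 2 directions differed in size. The higher genes had a median log2 change of 0.47 and the lower genes one of -0.84, against 0.06 over all genes tested. Changes of at least 2-fold, a log2 change of 1, were made up mostly of falls, with 380 genes lower (3.11%) and 49 higher (0.401%). At a log2 change of 3 or more the numbers were alike, 14 higher and 13 lower, whereas between 1 and 2 there were 19 higher and 321 lower. A change in these units is relative to the other transcripts of a library, so less of an mRNA per embryo and more of the others cannot be told apart. The log2(value + 1) scale also understates the changes of low genes.

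Without regard to the model, 1658 of the genes tested were higher in every scNT library than in any oocyte library (13.6%) and 1189 were lower in every one (9.74%). Counted over all 20526 genes in the table, these numbers were 1752 (8.54%) and 1366 (6.65%). Of the called genes, 1041 higher and 916 lower ones did not overlap between the groups. At the edge of the filter, the 283 genes that reached 10 in exactly 4 libraries had a median normalized count of 11.4 for oocytes and 10.5 for scNT embryos. The 266 genes left just outside, at 10 or more in exactly 3 libraries, had a median of 9.4 in both.

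The balance between rises and falls depended on the scaling, whereas the larger falls outnumbered the larger rises under each scaling tried. The authors' values summed to more in the scNT libraries, a mean of 8643141 against 7711162 in oocytes, with no overlap between the groups (exact permutation p = 0.0286, two-sided, the smallest that 4 against 4 can give). With every library set to the same total, 337 genes were called higher and 1598 lower by limma, and the median log2 change of all genes moved from 0.06 to -0.10. With median-of-ratios scaling the split was 681 higher and 1126 lower. A count test on the recovered reads, edgeR's quasi-likelihood test, called 622 higher and 1101 lower. Falls of at least 2-fold numbered 546 with equal totals and 410 with median-of-ratios scaling, against 36 and 44 rises of that size.

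Single libraries also moved the counts. Without scNT replicate 4 limma called 789 genes, 239 higher and 550 lower. Without oocyte replicate 1 it called 1305, without oocyte replicate 4 1215, and without scNT replicate 2 1235. Of those numbers, 784, 1274, 1200 and 1206 were among the 2256 genes. Leaving out scNT replicate 3, the library that stood apart, gave 2247 called genes, of which 1838 were shared, and 484 falls and 48 rises of at least 2-fold.

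The modest rises that were called lay among the most abundant transcripts. Standard errors were smaller for abundant genes, so small changes in either direction could be called more readily there. The genes tested were ordered by their mean log2 level over the 8 libraries and divided into 10 groups of 1221. In the most abundant group 383 genes (31.4%) were called higher and 35 (2.87%) lower by limma, with a median log2 change of 0.27. In the next group the counts were 287 higher and 52 lower, with a median of 0.21. In the middle of the range, the fifth group from the bottom, 40 genes were higher and 151 lower. In the least abundant group 30 were higher and 81 lower, and the median was -0.14. The most abundant group also had the highest median, and the least abundant the lowest, under the other scalings. With equal totals the medians ran from -0.29 in the least to 0.10 in the most abundant group, which then held 137 higher and 82 lower genes, and with median-of-ratios scaling they ran from -0.18 to 0.23.

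**Figure D1:**
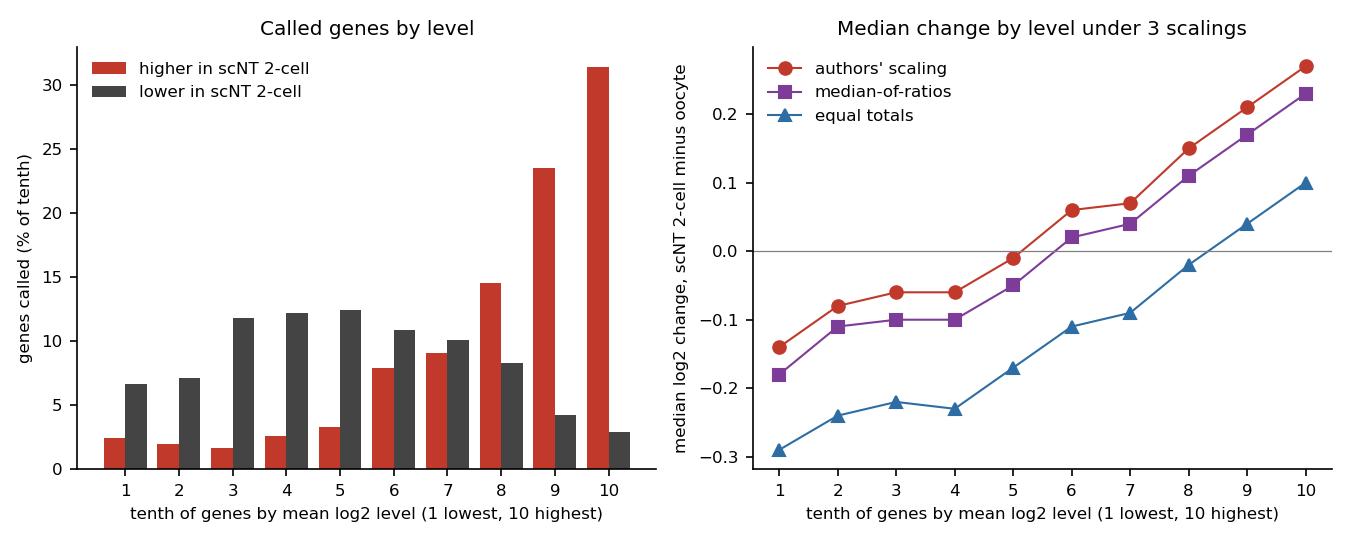
Left, bars give the share of genes called higher (red) or lower (grey) in scNT 2-cell embryos than in oocytes in 10 groups of 1221 genes, ordered along the x axis by mean log2 level. Right, points give the median log2 change of each group under 3 scalings, and the most abundant group is highest under each (0.27, 0.23 and 0.10).

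The same shift showed in the make-up of single libraries. The 1221 most abundant genes took 54.9%, 52.9%, 55.4% and 55.0% of the total in the oocyte libraries. They took 57.2%, 57.8%, 56.6% and 58.7% in the scNT libraries, all above every oocyte library, with scNT replicate 3 the lowest of its group. The share held by each library's 100 highest genes was 14.6%, 14.6%, 14.5% and 15.0% in oocytes and 15.3%, 15.6%, 16.6% and 16.0% in scNT embryos. The difference of 1.19 percentage points passed the exact permutation test (p = 0.0286, two-sided, the smallest possible). With any 1 library left out that test cannot go below 0.0571, and the difference ran from 0.96 to 1.37 points.

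The largest rises were of transcripts that were abundant in fibroblasts. Of the 10 largest rises, 8 belonged to a set of 88 genes that were at least 64-fold higher in fibroblasts than in IVF 8-cell embryos. Among the 20 largest 14 did and among the 50 largest 21, while the 33 members that were tested made up 0.27% of all genes tested. A gene under 10 in every oocyte library was tested only if every scNT library reached 10. The filter thus favours rises among members that were low in oocytes, and these shares are not support for a link. The set was built from libraries that take no part in the comparison, but the threshold was chosen after the values had been seen, so it is described and not tested. The 49 genes that rose at least 2-fold had a median log2 level of 12.01 in fibroblasts, 2.82 in oocytes and 5.34 in scNT 2-cell embryos. Of the 46 of them that could be tested between fibroblasts and IVF 8-cell embryos, 39 (84.8%) were higher in fibroblasts by limma and 4 (8.70%) lower. Of all genes tested in both comparisons 65.5% were called, 28.0% higher and 37.4% lower. Those shares are not matched for level. Among the 4070 genes of lowest mean level, 34 of 41 rises of at least 2-fold were higher in fibroblasts (82.9%) and 4 lower (9.76%). Of all genes at that level, 41.6% were higher and 22.0% lower.

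Gene ENSBTAG00000021466 had the largest rise of all. Its normalized counts were 4.3, 6.2, 0.0 and 1.8 in the oocyte libraries and 156.7, 124.7, 212.1 and 226.4 in the scNT 2-cell libraries. Every scNT library was thus far above every oocyte library. The log2 change was 5.77 (SE 0.54), with an adjusted p of 0.000157 in limma after Benjamini-Hochberg adjustment. In fibroblasts it was among the abundant transcripts, with 43498.9, 87263.2, 9961.2 and 92696.3. In IVF 2-cell embryos, which received no fibroblast, the counts were 1.0, 29.4, 127.0 and 63.9. The highest IVF library lay inside the scNT range and the lowest inside the oocyte range, and the difference between scNT and IVF 2-cell embryos did not pass limma (log2 difference 2.72, SE 1.2, adjusted p = 0.833). By the 8-cell stage the means were 319 in scNT and 307 in IVF embryos, with ranges that overlapped widely.

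Gene ENSBTAG00000013103 came next under the naming rule. It had 35.1, 64.9, 17.2 and 23.0 normalized counts in oocytes and 357.7, 359.2, 720.5 and 773.1 in scNT 2-cell embryos. The groups did not overlap, and scNT replicates 3 and 4 were the higher pair. The log2 change was 4.02 (SE 0.46) with a limma adjusted p of 0.00175 by Benjamini-Hochberg. Fibroblasts had 120041, 218518.3, 20436.7 and 184662.4, with replicate 3 again the lowest. IVF 2-cell embryos had 2.4, 56.2, 206.6 and 113.6, all below the lowest scNT library. That difference of 3.48 (SE 1.22) still did not pass limma over all genes (adjusted p = 0.833). Both genes were high again in blastocyst-derived cells, at means of 6415 in cells from scNT and 6629 in cells from IVF blastocysts for ENSBTAG00000013103, and 3551 and 3347 for ENSBTAG00000021466.

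**Figure D2:**
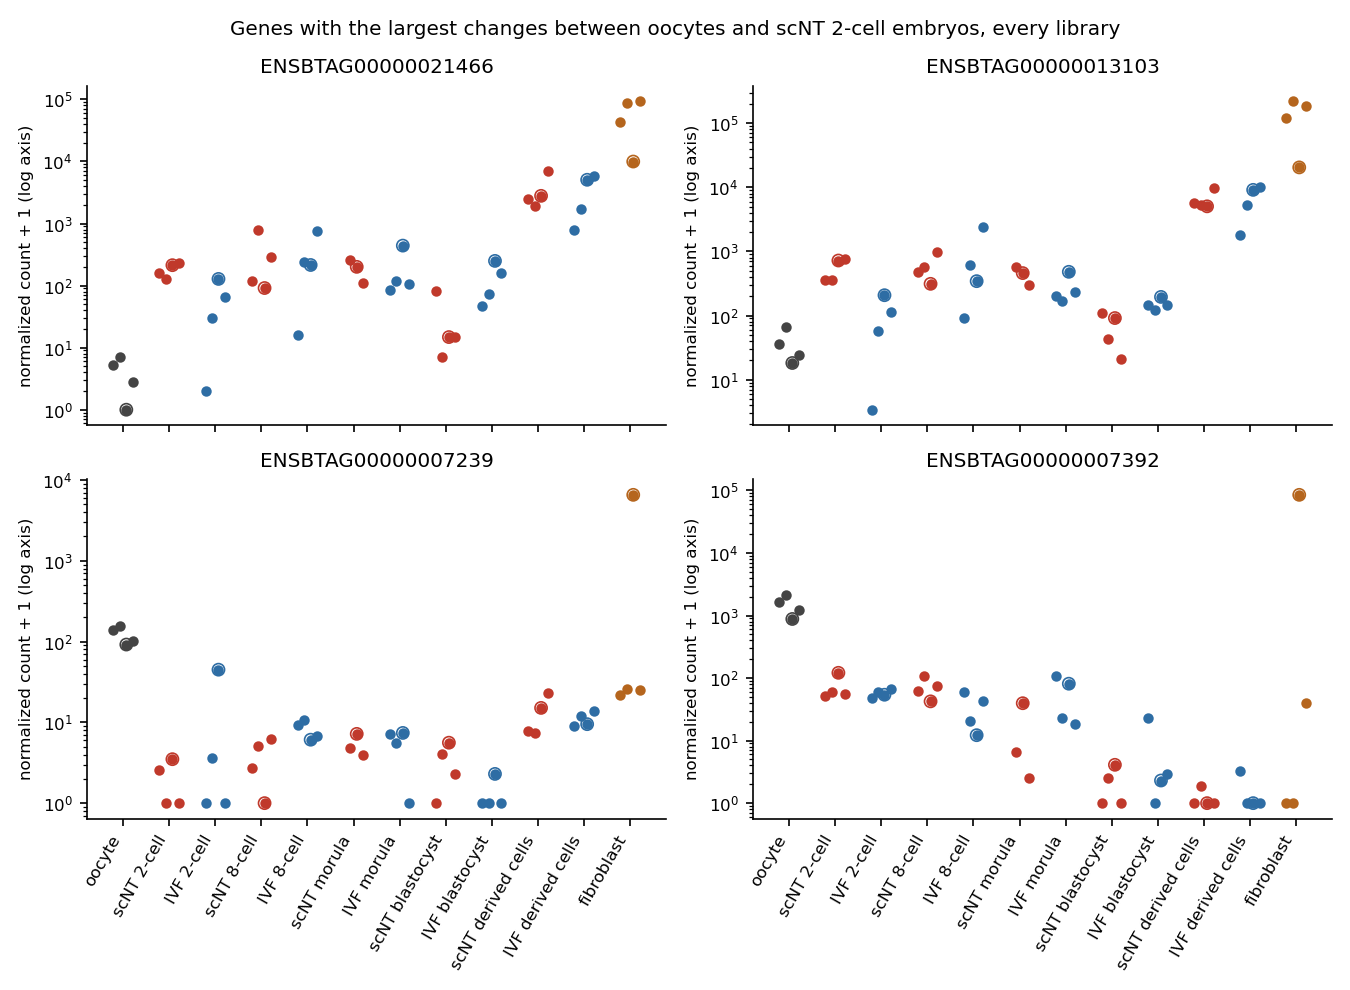
Normalized count + 1 (log axis) of the 4 genes named in the text in each library, with the groups along the x axis and replicate 3 ringed. Grey is oocyte, red scNT, blue IVF and brown fibroblast. In the upper panels every scNT 2-cell library lies above every oocyte library and fibroblasts are highest, and in the lower panels every scNT 2-cell library lies below the oocytes and fibroblast replicate 3 stands far above the other fibroblasts.

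All 88 genes of the fibroblast set can be followed, including the 55 that were too low to be tested. Of the 88, 40 (45.5%) were higher in every scNT library than in any oocyte library, against 8.54% of all genes in the table, and 0 were lower in every one, against 6.65%. In all, 75 had a higher mean in scNT embryos and 13 a lower one, with a median log2 difference of 1.13. With no filter on low values, limma called 39 of the 88 higher (4.55% of all genes in that fit were) and 0 lower (4.93% were), by Benjamini-Hochberg adjusted p. At an unadjusted p under 0.05 limma still had 0 of the 88 lower, and edgeR and DESeq2 called 0 of the 33 tested members lower. Most of the set was low in oocytes, however, which left little room for a fall. The shares of all genes are not matched for level, so the lack of falls shows little. The mean log2 level of the 88 genes was 1.83, 2.05, 1.51 and 1.67 in the oocyte libraries and 3.18, 3.08, 3.37 and 3.56 in the scNT libraries. The groups were clearly separate, and scNT replicate 3 was not an exception. The difference of means was 1.53, and 1.51 without that replicate.

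IVF 2-cell embryos varied more in this set, with 1.22, 1.90, 3.38 and 2.15. Their replicate 3 reached the scNT range, and the other IVF libraries lay below it. Later the 2 kinds of embryo were closer, at 3.45 ± 0.33 in scNT and 2.71 ± 0.41 in IVF 8-cell embryos and 3.26 ± 0.21 and 3.25 ± 0.13 in blastocysts (SD, n = 4 each). The set was chosen against the IVF 8-cell libraries, which favours a low value there, so the 8-cell difference cannot be read as a result. Fibroblasts were at 10.5 ± 1.45 (SD, n = 4), with replicate 3 at only 8.32.

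The amount was small beside the fibroblast level. Summed over the 88 genes, the scNT 2-cell libraries held 0.284%, 0.285%, 0.508% and 0.462% of the fibroblast mean, and the oocyte libraries between 0.0607% and 0.134%. IVF 2-cell libraries held 0.0542%, 0.118%, 1.09% and 0.186%. Gene by gene, the median gain from oocyte to scNT 2-cell embryo was 0.292% of the fibroblast level, with quartiles of 0.113% and 0.408%. These shares compare normalized counts, not molecules per cell. Whether the reads came from RNA carried over with the donor cell, from transcription in the embryo or from other cells in a pool was not tested.

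Genes with a smaller fibroblast excess were nearer to the 8.54% higher and 6.65% lower of all genes in the table. Among the 86 genes 32-fold to 64-fold higher in fibroblasts than in IVF 8-cell embryos, 16 were higher in every scNT library (18.6%) and 9 lower (10.5%). Among the 232 genes below them, at 16-fold to 32-fold, 22 were higher (9.48%), close to the share of all genes, and 7 lower (3.02%). For the 660 genes at 8-fold to 16-fold, 19 were higher (2.88%), fewer than among all genes, and 40 lower (6.06%), about as many. The 3831 genes at 2-fold to 8-fold had 161 higher (4.20%) and 404 lower (10.5%). Between 2-fold and 64-fold scNT replicate 3 was the highest scNT library, at 3.93 against 2.68 to 3.12 for the others at 16-fold to 32-fold. When fibroblast replicate 3 was left out of the fibroblast level, 128 genes were at least 64-fold higher, of which 53 (41.4%) were higher in every scNT library and 1 lower.

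**Figure D3:**
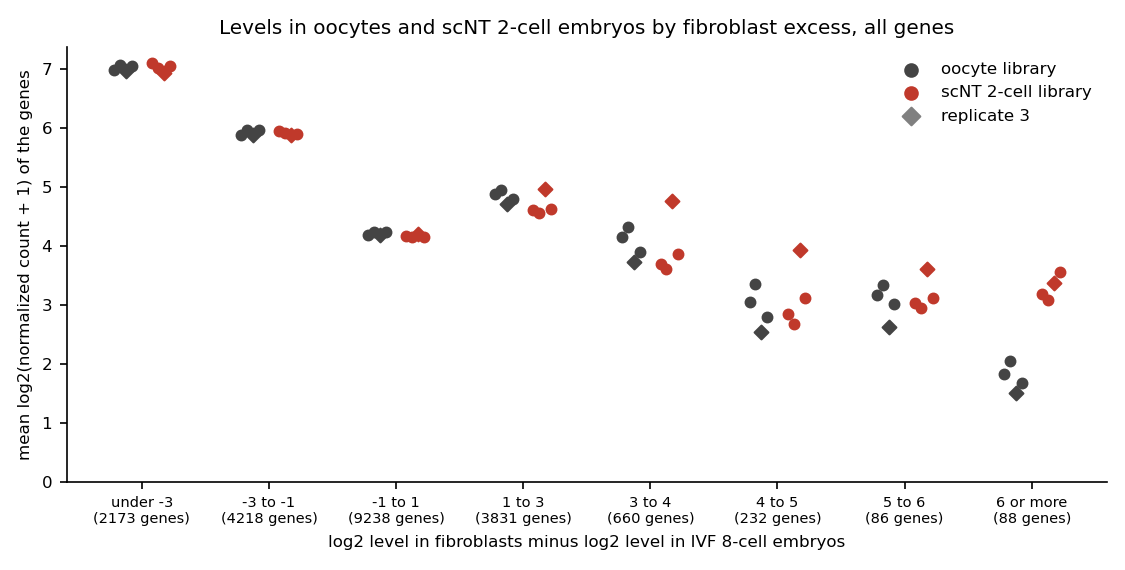
Mean log2(normalized count + 1) of the genes in each oocyte (grey) and scNT 2-cell (red) library, with all 20526 genes divided along the x axis by how much higher they were in fibroblasts than in IVF 8-cell embryos. Diamonds mark replicate 3. Only in the rightmost bin, the 88 genes at 64-fold or more, do all scNT libraries (3.08 to 3.56) lie above all oocyte libraries (1.51 to 2.05).

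The libraries of scNT embryos did not share the large rises evenly. Of the 49 genes that rose at least 2-fold, 33 were highest in scNT replicate 3 and 23 were lowest in replicate 1. Their median gain over the oocyte mean was 1.65, 1.95, 3.13 and 2.62 in replicates 1 to 4. Some genes crossed the minimum of 10 in all libraries of a group. There were 28 genes at 10 or more in every scNT library and under 10 in every oocyte library, with a median log2 level of 11.89 in fibroblasts. The 35 genes with the opposite pattern had a median of 4.24 there.

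Turning to the falls, gene ENSBTAG00000007239 fell furthest. It had 139.2, 154.1, 90.9 and 99.9 normalized counts in oocytes and 1.6, 0.0, 2.5 and 0.0 in scNT 2-cell embryos. The 4 scNT libraries together held 4 reads of it, against 786 in the oocytes. The fitted log2 change was -6.10 (SE 0.42), with a limma adjusted p of 1.5e-06 by Benjamini-Hochberg, and its size depends on the pseudocount because the scNT values were near 0. In IVF 2-cell embryos it had 0.0, 2.6, 43.9 and 0.0. In fibroblasts it had 21.1, 25.0, 6556.6 and 24.1, so that replicate 3 alone was high.

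Gene ENSBTAG00000007392 was a more abundant oocyte transcript. Its normalized counts were 1632.5, 2116.9, 879.1 and 1232.0 in oocytes and 50.6, 59.9, 120.3 and 53.9 in scNT 2-cell embryos. The groups were far apart, and scNT replicate 3 was the highest of its group. The log2 change was -4.36 (SE 0.35), with an adjusted p of 0.000234 in limma after Benjamini-Hochberg adjustment. IVF 2-cell embryos were at 46.8, 59.4, 53.1 and 65.0, and the scNT to IVF difference was 0.26 (SE 0.29, limma adjusted p = 0.839). The gene stayed low later, with means of 1.15 in scNT and 6.38 in IVF blastocysts. Fibroblasts had 0.0, 0.0, 85021.0 and 38.4, once more with replicate 3 alone high.

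Many of the very largest falls were of genes high in fibroblast replicate 3. A set of 311 genes was at least 32-fold higher in that library than in any other fibroblast library, and 8 of the 10 largest falls, 11 of the 20 largest and 13 of the 50 largest belonged to it. Its 219 tested members were 1.79% of all genes tested. Likewise, a gene under 10 in every scNT library was tested only if every oocyte library reached 10, which favours falls among such members. The 2 sets share 0 genes, and this set too was chosen after the values were seen. Of all 311 genes, 50 (16.1%) were lower in every scNT library than in any oocyte library and 14 (4.50%) higher, against 6.65% and 8.54% of all genes in the table. In all, 231 had a lower mean and 80 a higher one, with a median log2 difference of -0.42.

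By library, the mean log2 level of the 311 genes was 5.58, 5.76, 4.90 and 5.21 in oocytes and 4.38, 4.26, 5.30 and 4.43 in scNT 2-cell embryos. Here scNT replicate 3 lay within the oocyte range while the other scNT libraries lay below it. The difference of means was -0.77, and -1.01 without that replicate. Limma called 33 of the 219 tested members lower (15.1%, against 8.65% of all genes tested) and 7 higher (3.20%, against 9.83%). The number lower depended on single libraries. It was 76 without scNT replicate 3 and 45 without oocyte replicate 3, but 15 without scNT replicate 4, and 23, 22, 19, 22 and 21 without scNT replicates 1 and 2 and oocyte replicates 1, 2 and 4. Over all genes tested 1056 were called lower, and in the same fits 1094, 1152 and 550, and then 957, 739, 707, 875 and 700. The smaller counts came where fewer genes of any kind were called lower, but the drops were not in proportion. Without scNT replicate 1, members went from 33 to 23 while all lower genes went from 1056 to 957. In the fit of all 47 libraries 3 members were lower, of 328 genes in all. IVF 2-cell embryos spanned 3.95, 4.57, 6.36 and 5.35, from below the scNT libraries to above every oocyte library. The 3 other fibroblast libraries were at 1.15, 1.35 and 1.54 and fibroblast replicate 3 at 8.76. What these genes have in common beyond their levels, and which cells their RNA came from in any library, was not tested.

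**Figure D4:**
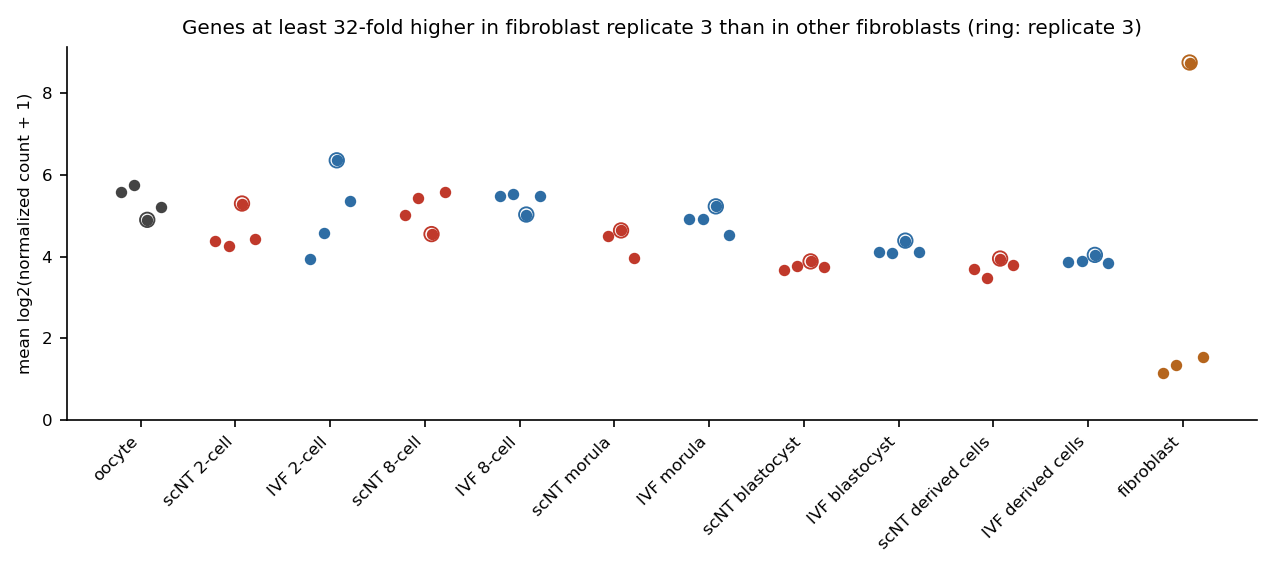
Mean log2(normalized count + 1) of the 311 genes that were at least 32-fold higher in fibroblast replicate 3 than in any other fibroblast library, in each library of every group along the x axis. Rings mark replicate 3. In scNT 2-cell embryos replicate 3 (5.30) stands above the other libraries (4.26 to 4.43), and in IVF 2-cell embryos replicate 3 is also the highest, at 6.36.

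Of the 380 genes that fell at least 2-fold, 25 were in that set and the others were not. Their median log2 level was 6.90 in oocytes, 5.36 in scNT 2-cell embryos and 5.63 in IVF 2-cell embryos. They remained at about that level in 8-cell embryos, at 5.37 in scNT and 5.70 in IVF. In morulae they were back at 7.15 and 6.84, and in blastocysts at 7.27 and 7.21. The genes not called moved between 7.24 and 7.49 over the same 12 groups. The fall at the 2-cell stage was thus followed by a higher median once morulae were reached, in embryos of both kinds.

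The return could be tested in steps that share no library with the oocyte to scNT 2-cell comparison. From the IVF 8-cell embryo to the IVF morula, 185 of the 352 genes with falls of at least 2-fold that could be tested rose by limma (52.6%) and 9 fell (2.56%), with a median log2 change of 1.05. Over all 11840 genes tested in both comparisons 45.0% were called, of which 16.3 percentage points rose and 28.6 fell, with a median of -0.29. From the scNT 8-cell embryo to the scNT morula, 221 of 356 rose (62.1%) and 29 fell (8.15%), with a median of 1.74. There 69.0% of all genes were called, 26.5% up and 42.5% down. Taking every gene lower in scNT 2-cell embryos whatever the size, 374 of 1020 rose (36.7%) and 99 fell (9.71%) in the IVF step, and 511 of 1030 rose (49.6%) and 223 fell (21.7%) in the scNT step.

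The shares also exceeded those of all genes of like abundance. Among the 4070 genes of lowest mean level, 44.1% of the lower genes rose in the IVF step against 22.4% of all genes at that level. Among the 4070 in the middle the shares were 35.8% and 18.1%, and among the 4070 of highest level 27.6% and 8.99%. In the scNT step they were 53.7% against 32.9%, 52.1% against 30.6%, and 38.6% against 16.4%. The lower genes of highest level showed no net return in the scNT step, where 36.4% of them fell and their median log2 change was -0.01, and in the IVF step 20.2% of them fell, with a median of 0.10. These are shares of called genes given without a test.

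The genes called higher went the other way. Of the 1192 that could be tested in the IVF step from 8-cell embryo to morula, 557 fell (46.7%) and 78 rose (6.54%). Of all genes tested in both comparisons, 28.6% fell and 16.3% rose there. In the scNT step 709 of 1198 fell (59.2%) and 174 rose (14.5%), against 42.5% and 26.5% of all genes. The rises of at least 2-fold showed no such excess of falls. In the IVF step 6 of 41 rose (14.6%) and 4 fell (9.76%), with a median log2 change of -0.23. In the scNT step 8 of 47 rose (17.0%) and 7 fell (14.9%), with a median of -0.38. Of these large rises 44 were among the 4070 genes of lowest level. At that level 22.4% of all genes rose and 12.9% fell in the IVF step, and 32.9% rose and 26.6% fell in the scNT step. The 1151 genes that rose by less than 2-fold had a median log2 level of 9.84 in oocytes, 10.28 in scNT embryos at the 2-cell stage and 10.19 at the 8-cell stage, and then 9.24 in their morulae and 8.91 in their blastocysts. In IVF embryos the medians were 10.03, 10.05, 9.58 and 9.02 at the same stages. These transcripts were thus abundant from the oocyte to the 8-cell stage and lower afterwards. Abundance moved with this result. Among the 4070 genes of highest level, 53.4% of the higher genes fell in the IVF step, against 45.7% of all genes there. In the scNT step the shares were 66.2% and 60.4%. Among the 4070 in the middle they were 32.5% and 25.9% in the IVF step, and 43.9% and 39.8% in the scNT step. Among the 4070 of lowest level the higher genes fell less often than all genes, at 9.59% against 12.9% and 24.1% against 26.6%.

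**Figure D5:**
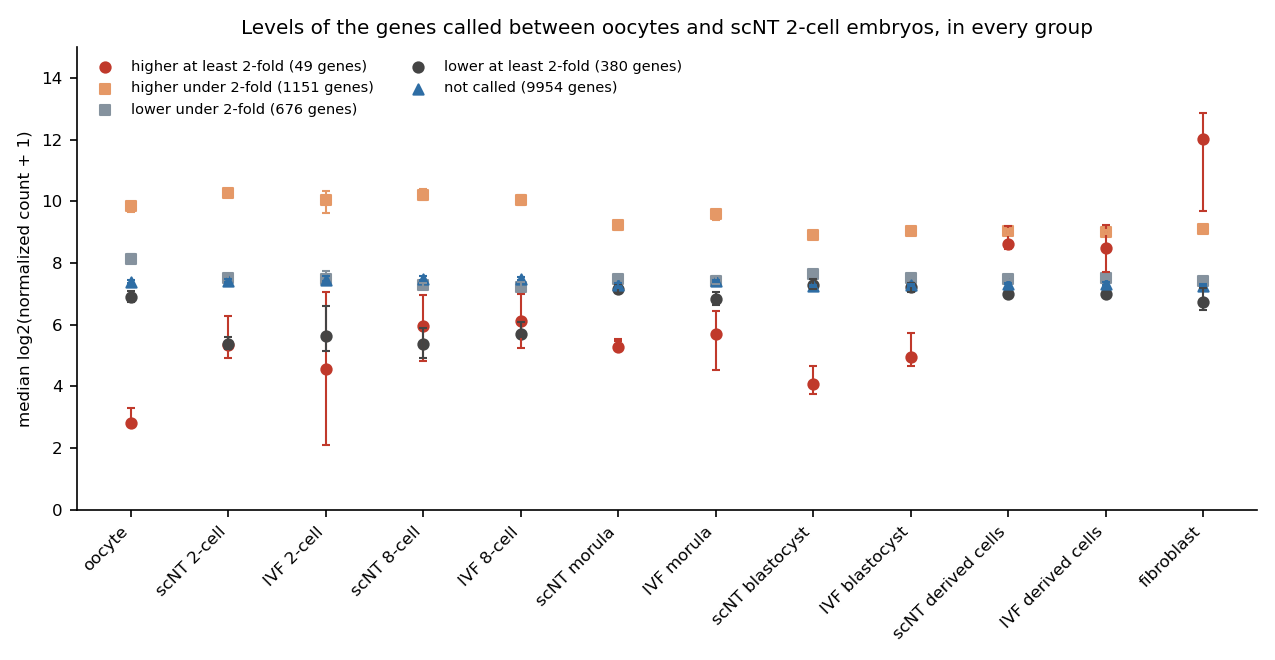
Median log2(normalized count + 1) in each of the 12 groups (x axis) of the genes called higher or lower between oocytes and scNT 2-cell embryos, split at 2-fold. Markers are medians of the group means and bars run from the lowest to the highest median of a single library, so a marker can lie outside its bar. The genes that fell at least 2-fold (dark grey circles) sit at 5.36 in scNT 2-cell embryos and 7.15 in scNT morulae, and those that rose at least 2-fold (red circles) are highest in fibroblasts at 12.01.

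IVF 2-cell embryos give the same comparison without nuclear transfer, but they were set against the same 4 oocyte libraries, so the 2 comparisons share their controls and their values are only placed side by side. Against oocytes, limma called 130 genes (1.06%) in IVF 2-cell embryos, 3 higher (0.0244%) and 127 lower (1.03%) of 12313 tested. For the 1200 genes higher in scNT embryos the median difference from oocytes was 0.47 in scNT and 0.23 in IVF embryos. For the 1056 lower genes it was -0.84 and -0.75. For the 49 rises of at least 2-fold it was 2.56 and 1.28, and for the 380 falls of that size -1.34 and -1.14. The genes were chosen on the scNT values, which favours the scNT side of each pair.

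Tested directly, scNT and IVF 2-cell embryos differed in 4 of 12195 genes by limma (0.0328%), all 4 higher in scNT embryos. A gene called in scNT embryos and not in IVF embryos is therefore not shown to differ between them. The IVF pools spread more widely in some groups of genes. Of the genes that rose at least 2-fold, the median level in single IVF 2-cell libraries ran from 2.10 to 7.06, against 4.92 to 6.28 in scNT 2-cell and 2.70 to 3.29 in oocyte libraries. A limma call favours a small spread in the scNT and oocyte libraries, so part of that contrast is built in. For the genes not called, the library medians ran from 7.40 to 7.58 in IVF 2-cell, 7.39 to 7.48 in scNT 2-cell and 7.34 to 7.43 in oocyte libraries. For the 88 genes of the fibroblast set, which was built from other libraries, the SD was 0.9, 0.21 and 0.23.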

How the data were processed

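Libraries were made from RNA longer than 200 nt with a low-input kit using several rounds of PCR, per the labels' protocols. The submitters' processing notes name the tools FastQC, MultiQC, STAR and DESeq2 and the genome build UMD3.1. For their versions and roles, the annotation, the counter and its strand setting, and molecular identifiers, nothing was given in the sources used here. Statements about depth therefore cover counting error only, and overlapping or near-identical genes may share reads. In the deposited table the signal is a normalized count, scaled by the authors and written to 1 decimal. Each library's values were whole multiples of 1 step. In the oocyte libraries 99.93% to 99.98% of nonzero values were whole reads to within 0.05, which gave the read totals.

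Groups and replicate numbers came from the sample titles. The test was limma 3.58.1 (trend, robust) in R 4.3.3 on log2(value + 1), two-sided, over genes at 10 or more in at least 4 of the 8 libraries (at least 3 where 1 was left out), with Benjamini-Hochberg adjustment over all genes tested. At an unadjusted p under 0.05 it gave 4132 genes. On the recovered reads DESeq2 1.42.0 called 2434 genes, 2089 of them shared, and edgeR 4.0.16 called 1723, 1619 shared. The script was tested on simulated data. Single values per library were compared by exact permutation (scipy 1.17.1).

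The comparison, lists and sets were chosen with earlier results of these data known. The naming rule took called genes whose mean over the 8 libraries was 50 or more and whose groups did not overlap, by size of change. It was met by 989 higher and 758 lower genes, and its condition on symbols could not be applied. No more than 2 identifiers per direction are printed. None of the 25 lists of named genes (0 usable), nor the mitochondrial share, could be run, because 0 identifiers matched the reference table (ARS-UCD2.0).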

Additional observations from a re-analysis of the deposited data

Results flagged for a closer look

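In 58 groups of 4 libraries, 15 single libraries stood apart from the other 3 by Dixon's criterion at 95%, where chance would mark about 1 group in 20. The groups are not independent, since 1 library can stand apart for several genes.

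Replicate 3 of fibroblasts stood apart for ENSBTAG00000007239 (6556.6 normalized counts), for ENSBTAG00000007392 (85021.0), for the mean log2 level of the 88 fibroblast genes (8.32, below the other fibroblasts) and for that of the 311 genes chosen on that library (8.76), where the choice itself sets it apart. Replicate 3 of scNT 2-cell embryos stood above its group for ENSBTAG00000007392 (120.3) and for the 311 genes (5.30). Replicate 3 of IVF 2-cell embryos was the high one for ENSBTAG00000007239 (43.9). Oocyte replicate 4 had the largest share in its 100 highest genes among the oocyte libraries (15.037%), below all scNT 2-cell libraries.

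At later stages ENSBTAG00000021466 was apart in IVF morula replicate 3 (439.4) and scNT blastocyst replicate 1 (81.2), and ENSBTAG00000013103 in scNT blastocyst-derived cells replicate 4 (9788.9). For ENSBTAG00000007392 it was IVF blastocyst replicate 1 (22.3), and values of a few reads in scNT (replicate 2, 0.9) and IVF (replicate 1, 2.3) blastocyst-derived cells. ENSBTAG00000007239 had a single read in IVF blastocysts, in replicate 3 (1.3).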

How the results depend on the processing

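The log2 changes of the 4 named genes kept their direction in all alternatives run and their calls in all but 1. ENSBTAG00000007392 lost its call when all 47 libraries were fitted together (-4.36, limma adjusted p = 0.166; the cause was not tested). Totals were less stable. In that fit 435 genes were called (107 higher and 328 lower, with 18 and 214 of at least 2-fold). Higher genes numbered 622 with edgeR, 337 with equal totals and 681 with median-of-ratios scaling, and lower genes 1598 with equal totals. Rises of at least 2-fold numbered 91 with no filter and 11 at a minimum of 50, where falls numbered 249; both filters change which genes are tested. Leaving out 1 library gave 789 to 2757 called genes, 239 to 1605 higher, 550 to 1152 lower, 33 to 64 rises and 260 to 484 falls of at least 2-fold. The share in the 100 highest genes then differed by 0.96 to 1.37 points (p = 0.0571, the smallest possible in an exact permutation test), and the number of genes detected by -287 to -103.

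Replicate numbers did not pair the libraries: deviations of same-numbered libraries correlated at -0.217, -0.402, -0.308 and 0.049. With the replicate block 1440 genes were called, 649 of them higher.

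Alternatives for the gene sets were added after seeing the data. The mean log2 difference of the fibroblast set, 1.53, was 1.79 at a pseudocount of 0.5, 0.94 at 5, 1.30 with fibroblast replicate 3 left out of the choice and 0.84 at 32-fold, and 1.45 to 1.63 without 1 library. For the genes of fibroblast replicate 3 it was -1.01 to -0.64 without 1 library.

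The lists of named genes and the mitochondrial share were not run. Depth limits the 8316 untested genes, 55 of the fibroblast set among them, and ENSBTAG00000007239, with 4 reads in scNT 2-cell embryos.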

Other observations

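The median gene varied less among the scNT 2-cell libraries than among the oocyte libraries. The median SD of a gene's log2 level was 0.192 over the 4 scNT libraries and 0.237 over the 4 oocyte libraries, and 0.156 over the scNT libraries without replicate 3. These medians are descriptions, without a test. Whole libraries did not show the same, since mean correlations with the own group were 0.963 to 0.982 in scNT embryos and 0.975 to 0.983 in oocytes.

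For the smaller falls, as for the large rises, scNT replicate 3 was most often furthest from the oocytes and replicate 1 most often nearest. Of the 676 genes that fell by less than 2-fold, 322 were lowest in replicate 3 and 236 in replicate 4, and 327 were highest in replicate 1. Of the 1151 rises of less than 2-fold, 758 were highest in replicate 4 and 528 lowest in replicate 1. Replicate 1 thus lay nearest to the oocytes for both classes, with median differences of 0.40 and -0.50, against 0.60 and -0.74 in replicate 4.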
